A study of Homo sapiens with 9 samples.

Results

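The mRNAs described here encode 10 regulators of the epithelial state, namely the grainyhead-like factors GRHL1, GRHL2 and GRHL3, the zinc finger factors OVOL1 and OVOL2, the splicing regulators ESRP1 and ESRP2, the small GTPase RAB25 and the ETS factors EHF and ELF3. They were taken by gene symbol, and all 10 were found among the 19976 genes of the mRNA table. The symbols were chosen by their mRNA read counts in the 3 cell lines, so the levels and ratios of these 10 mRNAs between lines are a description and were given no test.

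HCT8 is a long-established line from a human colorectal adenocarcinoma and served as the drug-sensitive parent. HCT8/5-Fu is its derivative resistant to 5-Fu (5-fluorouracil, an antimetabolite that depletes thymidylate). HCT8/DDP is the derivative resistant to DDP (cisplatin, which crosslinks DNA). Both were obtained by exposing HCT8 cells to rising concentrations of the drug for months, and the study's methods say that each was then kept in its drug to maintain resistance. Lasting resistance, the drug's presence and other effects of long culture therefore cannot be told apart, and whether a derivative is 1 clone is not given in the sources used here. Total RNA of 3 replicates per line was sequenced, and the medium of all lines was RPMI with fetal bovine serum. Nothing in the labels says that the replicates came from separate cultures, so the spread between them may be technical.

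In epithelial cells, grainyhead-like proteins bind and open enhancers and promoters of junction genes such as CDH1, and OVOL proteins repress the mesenchymal factor ZEB1. ESRP proteins bind pre-mRNA and direct the inclusion of exons typical of epithelia, for example in FGFR2, CD44, CTNND1 and ENAH. RAB25, a member of the RAB11 group, moves cargo such as integrins from the recycling endosome to the apical or leading membrane, and EHF and ELF3 are ETS factors restricted to epithelia that act in the differentiation of the gut lining. ZEB1 and the miR-200 family repress each other, and ZEB1 is a known repressor of CDH1, of the ESRP genes and of GRHL2.

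The mRNA libraries held 19753035 to 28535882 reads, with 14557 to 15117 genes that had a read. Levels are given as counts-per-million (CPM, over all reads counted in the library), and levels of different genes are compared only as FPKM, which also divides by transcript length. HCT8/5-Fu replicate 1 stood apart from its own line. Over 8905 genes, its log2 CPM differed from those of the other two libraries with an SD of 0.44 and 0.45, while the other two differed from each other with an SD of 0.12. HCT8 replicate 1 differed from its line with an SD of 0.28 and 0.30, against 0.12 between the other two. For the regulators that HCT8/5-Fu replicate 1 moves most, the fold change without that library is also given. What sets either library apart was not tested. Markers of colorectal epithelium had reads in all lines, with 10 of 11 at 1 CPM or more in each. Their summed level was 4759 to 5899 CPM in HCT8, 12536 to 14914 CPM in HCT8/5-Fu and 8644 to 10057 CPM in HCT8/DDP cells. Most of each sum came from KRT8, KRT18 and KRT19, with means of 2468, 1536 and 584 CPM in HCT8. There, CDX2, VIL1 and CDH17 had 174, 279 and 94.8 CPM, and KRT20 and GPA33 had 2.38 and 1.13 CPM. CEACAM5, the marker below 1 CPM, had a mean of 0.42, 0.19 and 0.32 CPM in HCT8, HCT8/5-Fu and HCT8/DDP. The 8 fibroblast markers summed to 6.85 to 14.1 CPM, the 6 leukocyte markers to 0.816 to 5.21 CPM and the 5 endothelial markers to 0.557 to 2.22 CPM across the libraries, and the leukocyte genes PTPRC and CD3E had 0 reads in all of them.

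In the resistant cells most of the regulators were lower than in HCT8, but by very different amounts. GRHL2 and RAB25 were all but absent, OVOL1 was at about 2% of its parental level, and the others stayed at 34.1% to 73.1% of it, except GRHL3, which was higher. In HCT8/5-Fu, the 3 libraries of 9 regulators all lay below those of HCT8, and so did 30.4% of the 13228 genes tested. In HCT8/DDP the count was also 9, where 38.2% of the 13373 genes tested lay below HCT8. GRHL3 lay above HCT8 in both lines, where 21.1% and 23.0% of genes did so. The same values chose the 10 genes, so nothing is read from these counts. All 10 passed the filter on low counts against HCT8, but GRHL2, OVOL1 and RAB25 only through the HCT8 libraries. The median log2 ratio was -1.12 in HCT8/5-Fu and -1.10 over the 9 regulators with a read in HCT8/DDP, beside -0.0042 and -0.014 for the fitted log2 fold changes of all genes tested. The ratios use library totals and the fit TMM factors. Library totals shifted the fitted medians by -0.10 and -0.12.

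**Figure D1:**
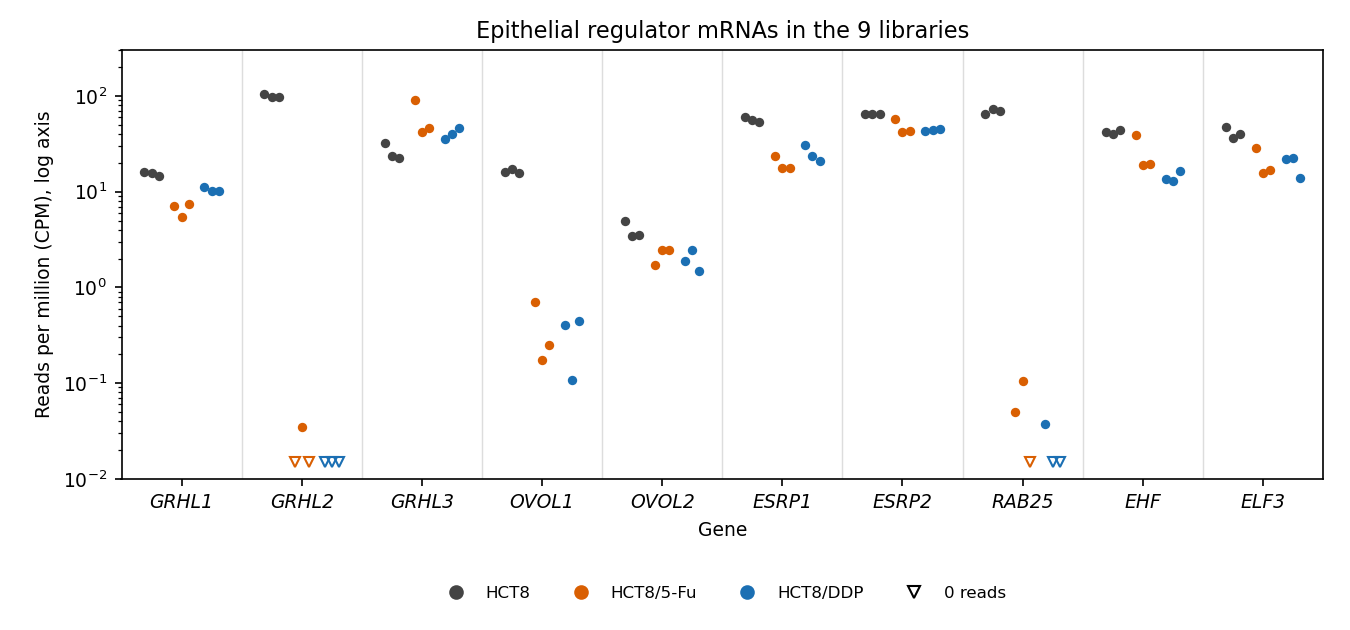
CPM of the 10 regulator mRNAs (log axis) in each library of HCT8 (grey), HCT8/5-Fu (orange) and HCT8/DDP (blue), with 1 point per library and open triangles at the foot for libraries with 0 reads. GRHL2 was between 98.0 and 104.4 CPM in HCT8 and had a read in only 1 resistant library, whereas GRHL3 was the only regulator whose resistant libraries all lay above those of HCT8.

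The 10 genes are spread over the genome. In coordinates that match build GRCh38, GRHL3 (ENSG00000158055, chr1:24319322-24364482), RAB25 (ENSG00000132698, chr1:156061160-156070504) and ELF3 (ENSG00000163435, chr1:202007945-202017183) lie on chromosome 1. GRHL1 (ENSG00000134317) lies at chr2:9951693-10002277. OVOL1 (ENSG00000172818, chr11:65787063-65797214) and EHF (ENSG00000135373, chr11:34621093-34661057) share chromosome 11. OVOL2 (ENSG00000125850) lies at chr20:17956979-18059188 and ESRP2 (ENSG00000103067) at chr16:68229033-68238102. GRHL2 (ENSG00000083307, chr8:101492439-101669726) and ESRP1 (ENSG00000104413, chr8:94641074-94707466) are both on chromosome 8. Of this pair only GRHL2 lost its reads, while ESRP1 kept 34.9% and 44.6% of its parental level in HCT8/5-Fu and HCT8/DDP.

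In HCT8 cells RAB25 had the highest level per transcript length of the 10, at 41.1 ± 2.36 FPKM (SD, n = 3), above 95.1% of the genes with a read in that line. GRHL2 followed at 16.6 ± 0.61 FPKM, then ESRP2 at 12.6, ESRP1 at 11.6, EHF at 9.61, GRHL3 at 6.61, ELF3 at 5.78, OVOL1 at 4.30, GRHL1 at 1.95 and OVOL2 at 1.79 FPKM. The ranges of GRHL3 and ELF3 overlapped, as did those of GRHL1 and OVOL2, and the other neighbours in that order did not. In the resistant lines the order was another. GRHL3 came at the top with 15.1 ± 6.81 FPKM in HCT8/5-Fu and 10.3 ± 1.45 FPKM in HCT8/DDP, followed by ESRP2 with 9.18 and 8.50 FPKM, and OVOL1, RAB25 and GRHL2 came last, in this order, in both. In HCT8/5-Fu every pair of neighbours overlapped except ELF3 with OVOL2 and GRHL1 with OVOL1. In HCT8/DDP the neighbours that overlapped were EHF with ELF3 and RAB25 with GRHL2.

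Among the grainyhead-like factors, GRHL2, which maintains epithelial junctions, had 2063, 2278 and 2297 reads in the HCT8 libraries, 0, 1 and 0 in those of HCT8/5-Fu, and 0 in each of HCT8/DDP. Both resistant lines lay below HCT8 without overlap, and the level in HCT8/5-Fu rests on a single read. GRHL3, known for its role in the skin barrier and in neural tube closure, had 634, 545 and 528 reads (32.1, 23.5 and 22.5 CPM) in HCT8. It had 90.5, 42.2 and 46.2 CPM in HCT8/5-Fu and 35.2, 40.2 and 46.6 CPM in HCT8/DDP. All resistant libraries lay above all HCT8 libraries, the closest being 35.2 CPM in HCT8/DDP replicate 1 against 32.1 CPM in HCT8 replicate 1. The mean was 2.29-fold higher in HCT8/5-Fu, or 1.70-fold without replicate 1, and 1.56-fold higher in HCT8/DDP. GRHL1, a factor of desmosomal genes, had 16.2, 15.8 and 14.5 CPM in HCT8, 7.05, 5.43 and 7.48 CPM in HCT8/5-Fu and 11.2, 10.3 and 10.2 CPM in HCT8/DDP. It was 2.33-fold and 1.47-fold lower than in HCT8, and was the only regulator whose HCT8/DDP libraries all lay above those of HCT8/5-Fu, 1.59-fold in the mean.

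The make-up of the grainyhead-like mRNAs therefore turned over. In HCT8, GRHL2 made up 66.1% of the summed FPKM of the 3 genes, GRHL3 26.2% and GRHL1 7.77%. GRHL3 made up 94.3% in HCT8/5-Fu and 88.5% in HCT8/DDP, with the rest almost all GRHL1. Their summed level was 25.1 ± 2.03 FPKM in HCT8, 16.0 ± 6.86 FPKM in HCT8/5-Fu and 11.6 ± 1.39 FPKM in HCT8/DDP. HCT8/5-Fu replicate 1 reached 23.9 FPKM, which lay above the lowest HCT8 library at 23.7 FPKM, so the summed levels of HCT8 and HCT8/5-Fu overlapped while those of HCT8 and HCT8/DDP did not. In bulk RNA, less RNA per cell and fewer cells with the RNA cannot be told apart, here and in all levels that follow.

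OVOL1, which represses mesenchymal genes and favours differentiation, had 316, 404 and 368 reads in HCT8, 14, 5 and 7 reads in HCT8/5-Fu and 11, 3 and 12 reads in HCT8/DDP. Its mean fell from 16.4 to 0.376 and 0.321 CPM, which is 43.5-fold lower (95% counting interval of the summed reads 32.8 to 74.2) and 51.0-fold lower (34.9 to 79.2). Without HCT8/5-Fu replicate 1 the former was 77.3-fold. OVOL2, a repressor of ZEB1 in epithelia, was already low in the parent, with 97, 80 and 82 reads (4.91, 3.45 and 3.50 CPM) in HCT8, and had 1.71, 2.45 and 2.48 CPM in HCT8/5-Fu and 1.89, 2.47 and 1.49 CPM in HCT8/DDP. The ranges did not overlap with HCT8, and the means were 1.78-fold (1.60-fold without HCT8/5-Fu replicate 1) and 2.03-fold lower. OVOL1 made up 70.7% of the summed FPKM of both genes in HCT8 but 9.57% in HCT8/5-Fu and 9.46% in HCT8/DDP. The sum dropped from 6.10 ± 0.36 to 1.10 ± 0.12 and 0.97 ± 0.18 FPKM. OVOL3, the remaining family member, had 3, 3 and 12 reads in all over the HCT8, HCT8/5-Fu and HCT8/DDP libraries.

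The splicing regulators were lower to a smaller degree and unequally. ESRP1 was at 60.3, 55.6 and 53.8 CPM in HCT8, 23.7, 17.7 and 17.8 CPM in HCT8/5-Fu and 31.0, 23.8 and 20.8 CPM in HCT8/DDP, which is 2.86-fold (3.18-fold without HCT8/5-Fu replicate 1) and 2.24-fold lower. ESRP2 was at 65.5, 65.0 and 64.9 CPM in HCT8, 57.8, 41.7 and 43.4 CPM in HCT8/5-Fu and 43.3, 44.2 and 44.7 CPM in HCT8/DDP. No resistant library reached the HCT8 range, and the means were 1.37-fold lower in HCT8/5-Fu, 1.53-fold without replicate 1, and 1.48-fold lower in HCT8/DDP. Both genes had about equal shares of the summed FPKM in HCT8 (48.0% for ESRP1 and 52.0% for ESRP2). The share of ESRP1 was 30.7% in HCT8/5-Fu and 37.6% in HCT8/DDP. The sum was 24.2 ± 0.75 FPKM in HCT8, 13.2 ± 2.41 FPKM in HCT8/5-Fu and 13.7 ± 0.94 FPKM in HCT8/DDP, with no overlap of either resistant line with HCT8.

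RAB25 had 1285, 1691 and 1651 reads in the HCT8 libraries, 1, 3 and 0 reads in HCT8/5-Fu and 1, 0 and 0 reads in HCT8/DDP. The highest resistant library held 0.105 CPM, against 65.1 CPM in the lowest HCT8 library. The means were 1340-fold lower in HCT8/5-Fu (95% counting interval 521 to 4898) and 5628-fold lower in HCT8/DDP (1021 to 224920), the last resting on 1 read. These intervals and those above cover counting error only. Both resistant lines nearly lacked reads of the regulator that was highest per transcript length in the parent.

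The ETS factors EHF and ELF3 were lower than in HCT8 in all resistant libraries. EHF, a factor of the gut and airway lining, was at 42.0, 39.8 and 44.7 CPM in HCT8, 39.1, 18.8 and 19.5 CPM in HCT8/5-Fu and 13.6, 12.9 and 16.6 CPM in HCT8/DDP. HCT8/5-Fu replicate 1 lay just below the lowest HCT8 library, and the mean was 1.63-fold lower with it and 2.20-fold lower without it. In HCT8/DDP EHF was 2.94-fold lower than in HCT8 and below all HCT8/5-Fu libraries, the only regulator for which this held. ELF3, needed for enterocyte differentiation in the mouse, was at 47.4, 36.9 and 40.4 CPM in HCT8, 28.8, 15.6 and 17.0 CPM in HCT8/5-Fu and 21.9, 22.3 and 13.9 CPM in HCT8/DDP. It was 2.03-fold lower in HCT8/5-Fu, 2.55-fold without replicate 1, and 2.14-fold lower in HCT8/DDP. Summed, both mRNAs went from 15.4 ± 1.05 to 8.74 ± 3.64 and 5.97 ± 0.22 FPKM.

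**Figure D2:**
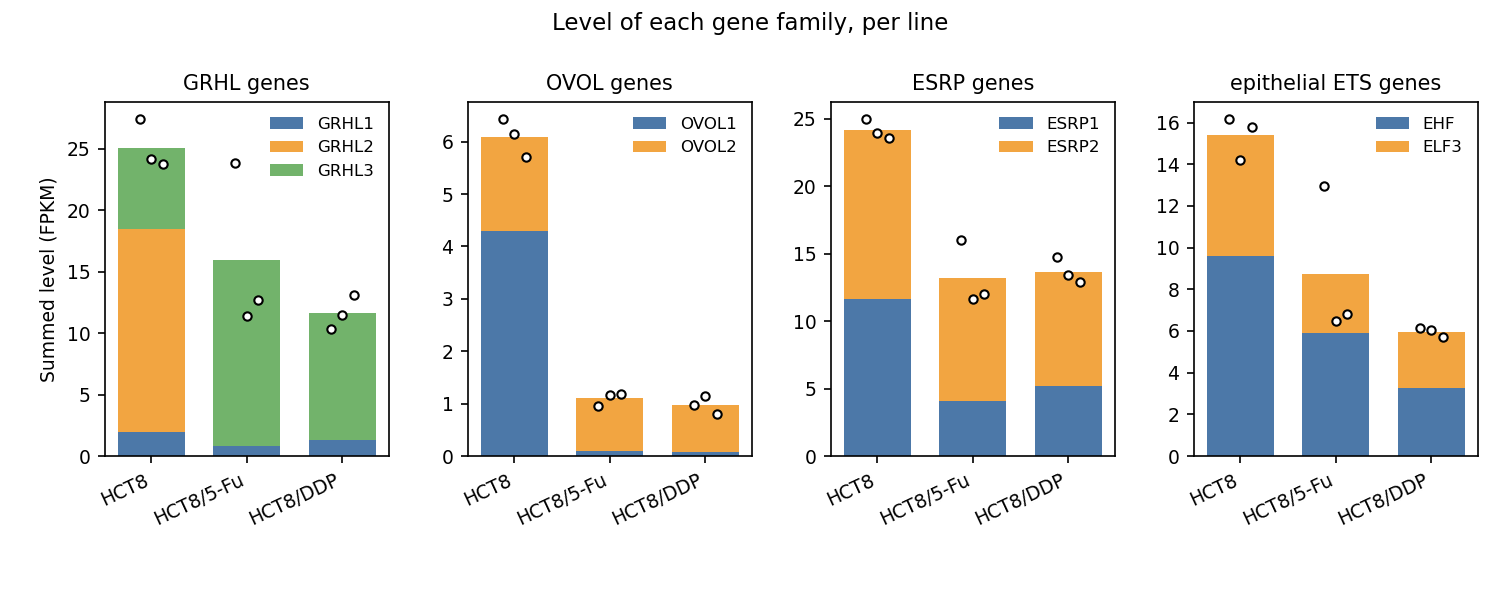
Summed FPKM of each gene family per line (linear axis from 0), with bars stacked from the mean of each gene over 3 libraries and white points for the sum in each library. GRHL2 and OVOL1 are the largest parts of their families in HCT8, but GRHL2 is missing from the resistant bars and OVOL1 is a thin foot of them, and the separate high point of HCT8/5-Fu in the GRHL, ESRP and ETS panels is replicate 1.

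Of 9896 genes with at least 10 CPM in HCT8, 49 (0.495%) were below 0.1 CPM in both resistant lines, GRHL2 and RAB25 included. This share depends on the limit of 0.1 CPM, and the same levels chose the regulators, so it is a description. The genes most like GRHL2 over the 9 libraries, by Pearson's r of log2(CPM + 0.5) among 9887 other genes with at least 10 CPM in HCT8, were ZNF311, GABRE, CXCL5, TTC30A and GLIPR2, with r of 0.9998 to 0.9999. CXCL5, a chemokine that attracts neutrophils, went from 20789 reads in HCT8 to 2 in HCT8/5-Fu and 1 in HCT8/DDP. ZNF311, a zinc finger gene, went from 1144 reads to 1 and 0, and GABRE, a GABA receptor subunit, from 1082 to 0 and 0. TTC30A, a protein of cilia transport, had 905 reads and GLIPR2 849 reads in HCT8, with 0 in all resistant libraries. In total 87 genes had an r of at least 0.99. These points share the library and its depth, and they fall into a high group of HCT8 libraries and a low group of resistant ones, so r here says little more than that a gene was far higher in HCT8. OVOL1, with 26 reads in each resistant line, had an r of 0.991.

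Other genes related to the regulators by family or function were then read from the fit over all genes, in which 38.7% of genes passed an adjusted p of 0.05 (Benjamini-Hochberg, edgeR quasi-likelihood test) in HCT8/5-Fu, 20.4% higher and 18.3% lower, and 52.5% in HCT8/DDP, 27.0% higher and 25.5% lower. Scaling by library totals in place of TMM factors lowered the median log2 fold change of all genes by 0.10 in HCT8/5-Fu and 0.12 in HCT8/DDP, and the CPM values above carry that shift, since they use library totals. In the wider grainyhead family, TFCP2, a ubiquitous activator, went the same way as GRHL2. It had 66.9, 55.1 and 52.4 CPM in HCT8, 4, 3 and 3 reads in HCT8/5-Fu and 0 reads in HCT8/DDP. It was 422-fold lower (95% counting interval 240 to 922) and at least 1583-fold lower, against a floor of 3 reads over the HCT8/DDP libraries. TFCP2L1, a factor of kidney duct and stem cells, fell from a mean of 41.1 to 6.76 CPM in HCT8/5-Fu and 9.22 CPM in HCT8/DDP, with log2 fold changes of -2.46 (SE 0.32, adjusted p = 0.000469) and -2.04 (SE 0.12, adjusted p = 2.13e-08). UBP1 was called lower in HCT8/DDP, at -0.32 (adjusted p = 0.017), and had -0.29 in HCT8/5-Fu (adjusted p = 0.0676), which passed the threshold with DESeq2 (adjusted p = 0.0174) and without HCT8/5-Fu replicate 1 (0.0408). The HCT8/DDP call of UBP1 was lost without HCT8 replicate 2 (adjusted p = 0.055), HCT8/DDP replicate 1 (0.0804) or replicate 2 (0.0904). Of the 3 genes tested, 2 fell in HCT8/5-Fu and 3 in HCT8/DDP.

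The other ETS factors moved both ways. Of 19 tested (25 listed), 5 rose and 5 fell in HCT8/5-Fu, and 8 rose and 7 fell in HCT8/DDP, with median log2 fold changes of -0.03 and 0.23. The PEA3 factors ETV4 and ETV5, targets of ERK signalling, rose by 1.52 and 0.94 on the log2 scale in HCT8/5-Fu and by 1.90 and 1.17 in HCT8/DDP. ELF4 rose by 0.79 and 0.81, and ELK3 by 0.59 and 0.86. ETS1 was at 19.4, 16.2 and 14.5 CPM in HCT8, 3.12, 4.38 and 3.97 CPM in HCT8/5-Fu and 9.18, 9.28 and 8.85 CPM in HCT8/DDP. It fell in both lines, with log2 fold changes of -2.0 (SE 0.22) and -0.75 (SE 0.14), and its groups did not overlap. ERG, with 183 reads over the HCT8 libraries, had 20 in HCT8/5-Fu, all in replicate 2, and 2 in HCT8/DDP, and its call in HCT8/5-Fu (adjusted p = 0.0232) was lost with DESeq2 (0.157) and without any 1 of the HCT8 libraries (0.0553 to 0.0825). Without HCT8 replicate 2, 3 rather than 5 ETS factors were called lower in HCT8/5-Fu.

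Of 9 other epithelial transcription factors tested, 2 rose and 3 fell in each resistant line, with median log2 fold changes of -0.04 in HCT8/5-Fu and 0.07 in HCT8/DDP. The pioneer factors FOXA2 and FOXA3 moved apart. FOXA2 rose from a mean of 2.87 to 7.04 and 7.97 CPM (log2 fold changes of 1.41 and 1.59), while FOXA3 fell from 10.2 to 2.71 and 3.47 CPM (log2 fold changes of -1.78 and -1.43), and neither gene's groups overlapped with HCT8. KLF4, a factor of colon differentiation, rose by 0.93 and 1.28. KLF5, typical of crypt cells, fell by 0.47 (adjusted p = 0.0401) and 0.51 (adjusted p = 0.00122). TFAP2A, a factor of surface ectoderm, fell by 0.46 (adjusted p = 0.031) and 0.33 (adjusted p = 0.0396). In HCT8/5-Fu the calls of KLF5 (adjusted p of 0.0687 to 0.163) and TFAP2A (0.069 to 0.144) were lost without replicate 2 or 3 of either line, which left 1 rather than 3 called lower. Without HCT8/5-Fu replicate 1, 4 rather than 2 were called higher. In HCT8/DDP the call of TFAP2A was lost with the replicate block (adjusted p = 0.064), with all 9 libraries in 1 fit (0.0556) and without HCT8 replicate 2 or 3 or HCT8/DDP replicate 1 or 2 (0.0535 to 0.168).

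Most genes of epithelial junctions and surfaces, several of them known targets of GRHL2, were not called lower. Whether GRHL2 acts on them in these cells was not tested. Of 24 tested, 9 rose and 2 fell in HCT8/5-Fu and 9 rose and 4 fell in HCT8/DDP, with median log2 fold changes of 0.26 and 0.15. CDH1, encoding E-cadherin, had a mean of 668 ± 12.6 CPM in HCT8, 676 ± 134 CPM in HCT8/5-Fu and 673 ± 52.5 CPM in HCT8/DDP (n = 3 each). Its log2 fold changes were 0.11 (SE 0.14, adjusted p = 0.576) and 0.13 (SE 0.10, adjusted p = 0.302). HCT8/5-Fu replicate 1 was at 830 CPM. Replicates 2 and 3 of that line, at 589 and 609 CPM, lay below the HCT8 libraries, which held 659 to 682 CPM. EPCAM, a surface adhesion molecule, rose by 0.56 and 0.46 on the log2 scale, although the call in HCT8/5-Fu was lost without HCT8 replicate 3 (adjusted p = 0.0532). DSP, a desmosomal plaque protein, rose by 0.69 and 0.88, and SPINT1, an inhibitor of membrane proteases, by 1.14 and 1.15. PRSS8, the membrane protease prostasin, went from 41.2, 37.7 and 45.4 CPM to 2.17, 3.19 and 3.26 CPM in HCT8/5-Fu and 3.15, 5.48 and 3.29 CPM in HCT8/DDP, with log2 fold changes of -3.72 (SE 0.22, adjusted p = 7.22e-06) and -3.26 (SE 0.19, adjusted p = 2.71e-08). AP1M2, an adaptor of sorting to the basolateral membrane, fell by 1.13 and 1.46. Without HCT8/5-Fu replicate 1, 4 rather than 2 were called lower in that line. In HCT8/DDP, 2 rather than 4 were called lower without HCT8 replicate 3 or any 1 of the HCT8/DDP libraries and with all 9 libraries in 1 fit.

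**Figure D3:**
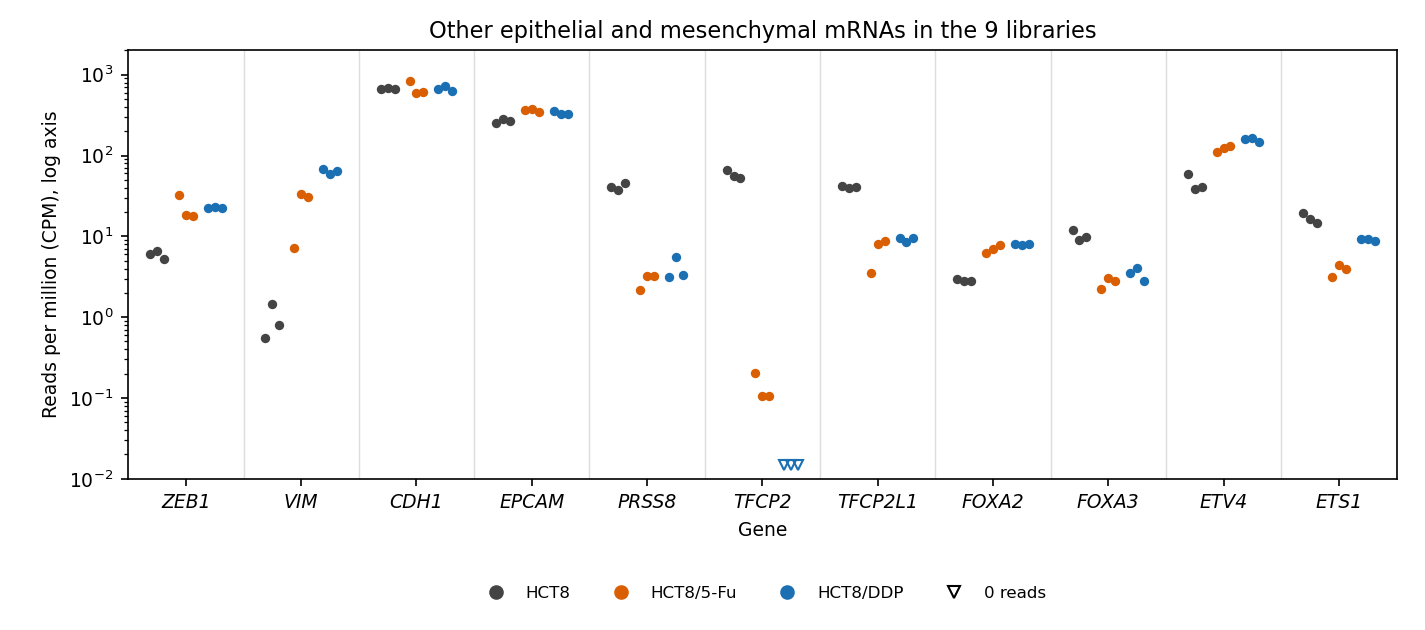
CPM (log axis) of 11 related mRNAs in each library of HCT8 (grey), HCT8/5-Fu (orange) and HCT8/DDP (blue), with open triangles at the foot for 0 reads. CDH1 stayed between 589 and 830 CPM in all 9 libraries, while TFCP2 was nearly empty in the resistant lines and ZEB1 and VIM rose.

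Of the 9 EMT (epithelial-mesenchymal transition) factors and mesenchymal genes listed, 4 had reads enough to be tested against HCT8, of which ZEB1 and VIM rose in both lines and SNAI1 and FN1 were not called. ZEB1, the repressor of epithelial genes, was at 6.02, 6.63 and 5.29 CPM in HCT8, 32.3, 18.1 and 17.7 CPM in HCT8/5-Fu and 22.4, 23.3 and 22.4 CPM in HCT8/DDP. Its log2 fold changes were 2.0 (SE 0.23, adjusted p = 0.000248) and 2.04 (SE 0.14, adjusted p = 1.54e-07). VIM, the intermediate filament vimentin, was at 0.557, 1.46 and 0.811 CPM in HCT8, 7.20, 33.2 and 30.7 CPM in HCT8/5-Fu and 69.1, 59.4 and 64.0 CPM in HCT8/DDP, with log2 fold changes of 4.77 (SE 0.66, adjusted p = 0.000668, or 5.21 without replicate 1) and 6.17 (SE 0.22, adjusted p = 3.91e-10). Neither resistant line overlapped with HCT8 for either gene. KRT8, an epithelial filament protein, rose from a mean of 2468 to 7287 and 4524 CPM. ZEB2 had 0 reads in all libraries. SNAI2 had 3, 14 and 1 reads and CDH2 (N-cadherin) 4, 43 and 20 reads in all in HCT8, HCT8/5-Fu and HCT8/DDP, below the filter of the test. The fibroblast markers summed to 6.85 to 8.10 CPM in HCT8/5-Fu and 11.4 to 14.1 CPM in HCT8/DDP, beside 9.06 to 12.2 CPM in HCT8, and DCN, LUM and COL3A1 had 0 reads in HCT8/DDP.

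For the ESRP genes, the table of gene counts holds no exon levels, so the splicing they direct was not measured here. Of 8 other splicing factors of epithelial or mesenchymal exons, 2 rose in HCT8/5-Fu and 3 rose and 1 fell in HCT8/DDP, with median log2 fold changes of 0.06 and 0.09. MBNL3, a muscleblind protein, rose by 1.34 and 1.36 on the log2 scale. RBM47, which acts on many of the same exons as the ESRPs, had a mean of 207, 184 and 201 CPM in HCT8, HCT8/5-Fu and HCT8/DDP (adjusted p of 0.665 and 0.491). Of 16 genes whose exons ESRPs are known to regulate, 3 rose and 3 fell in HCT8/5-Fu and 4 rose and 4 fell in HCT8/DDP, with median log2 fold changes of -0.08 and 0.06. CD44, a hyaluronan receptor with ESRP-dependent variant exons, fell from 56.7, 41.4 and 37.5 CPM to 4.33, 5.99 and 6.31 CPM in HCT8/5-Fu and 5.07, 7.02 and 3.03 CPM in HCT8/DDP. Its log2 fold changes were -2.89 (SE 0.23, adjusted p = 2.98e-05) and -3.04 (SE 0.23, adjusted p = 3.5e-07). FGFR2 fell in HCT8/5-Fu, at -0.81 (adjusted p = 0.00131), and had -0.22 in HCT8/DDP (adjusted p = 0.13, or 0.0327 scaled by library totals). ITGA6, a laminin receptor, rose by 0.56 in HCT8/5-Fu, a call lost without HCT8 replicate 3 (adjusted p = 0.0546), and by 0.84 in HCT8/DDP. In HCT8/5-Fu, the splicing factors called higher numbered 1 with library totals and without HCT8 replicate 1 or HCT8 replicate 2, where the call of MBNL2 was lost (adjusted p of 0.0537 to 0.0601), and 4 without HCT8/5-Fu replicate 1, and the ESRP-regulated genes called higher numbered 1 without HCT8 replicate 2 and 0 without HCT8 replicate 3. In HCT8/DDP the latter numbered 2 without HCT8/DDP replicate 2 or replicate 3 and with library totals. The splicing factors called lower in HCT8/5-Fu numbered 1 rather than 0 without HCT8/5-Fu replicate 1, with DESeq2, with library totals and with all 9 libraries in 1 fit, and this was MBNL1 (adjusted p of 0.0171 to 0.0484).

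RAB25's relatives and partners in membrane recycling did not share its loss. Of 12 tested, 5 rose and 2 fell in each resistant line, with median log2 fold changes of 0.18 and 0.12. RAB11A, the closest ubiquitous relative, had a mean of 249 ± 43.0 CPM in HCT8, 184 ± 7.43 CPM in HCT8/5-Fu and 222 ± 11.9 CPM in HCT8/DDP and was not called (adjusted p of 0.155 and 0.771). Without HCT8 replicate 1 it was called lower in both lines, by 0.49 (adjusted p = 0.0269) and 0.20 (adjusted p = 0.0312) on the log2 scale, and library totals also gave a call in HCT8/5-Fu (0.0445). RAB11FIP1, the RAB25 and RAB11 effector RCP, and MYO5B, their motor, were at 161 to 175 CPM and 121 to 138 CPM in the mean of each line and were not called in either. RAB11FIP3 rose by 0.65 and 0.68 and RAB11FIP5 by 0.70 and 0.62, whereas RAB11FIP4 fell by 0.60 and 0.53. CLIC3, which returns integrins from late endosomes with RAB25, had 23.5, 30.2 and 31.8 CPM in HCT8 and means of 12.2 and 15.1 CPM in the resistant lines (log2 fold changes of -1.13 and -0.80). Of the integrin chains listed, ITGB1, outside the rule for named genes, was not called. Its log2 fold changes were -0.10 and 0.14 (edgeR adjusted p of 0.638 and 0.344). ITGA5, a chain of an integrin that RAB25 carries, was at 67.4, 53.5 and 56.6 CPM in HCT8, 73.3, 79.4 and 77.2 CPM in HCT8/5-Fu and 117.5, 117.2 and 109.4 CPM in HCT8/DDP. ITGA5 rose by 0.49 (adjusted p = 0.0142) and 1.08 (adjusted p = 9.85e-07). Its call in HCT8/5-Fu was lost without replicate 2 or 3 of either line (adjusted p of 0.056 to 0.0723), and without these libraries 2 to 3 rather than 5 of the list were called higher in that line.

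**Figure D4:**
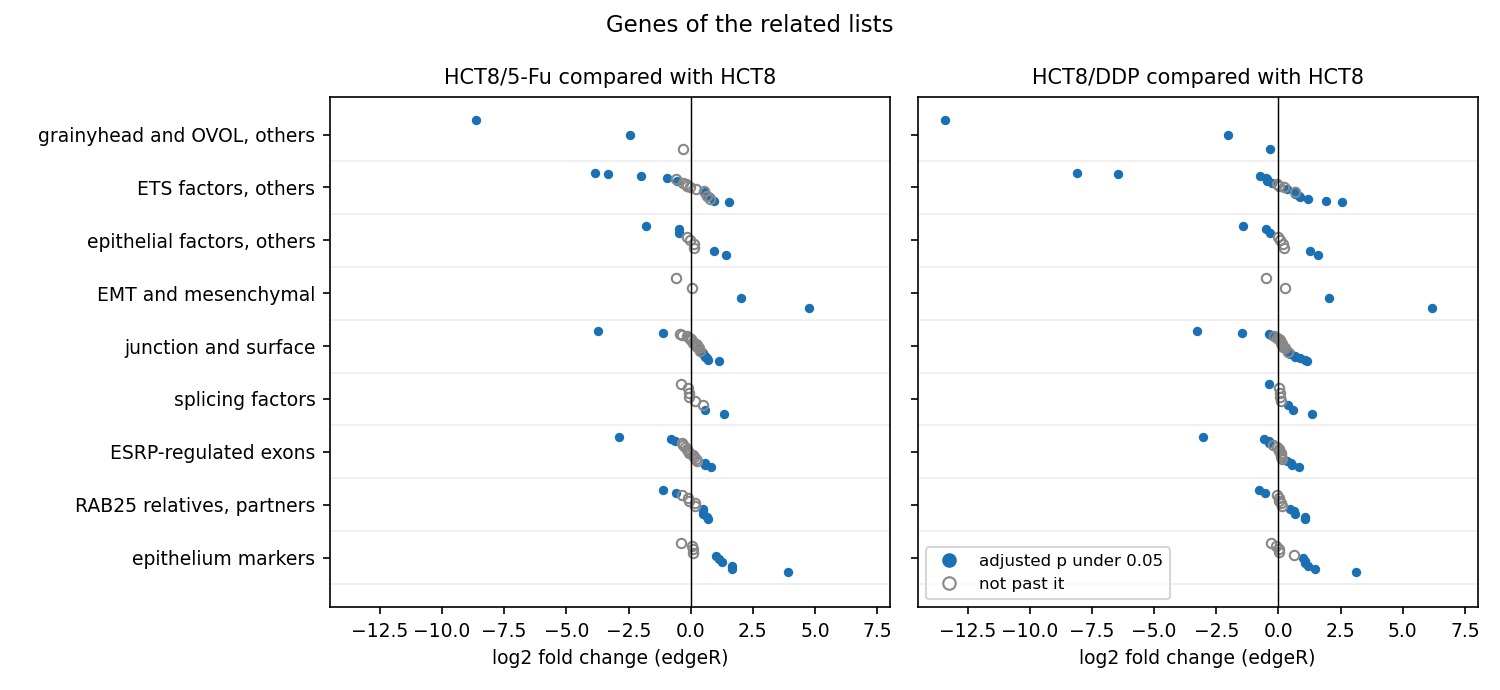
log2 fold change (edgeR) of each tested gene of 9 related lists in HCT8/5-Fu (left) and HCT8/DDP (right) against HCT8, filled where the adjusted p was under 0.05. TFCP2 lies furthest to the left in both panels, and fitted values depend on the prior count where a line had 0 reads. Both panels share the HCT8 libraries.

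Upstream sequences of 250 bases were matched by symbol in RefSeq (GRCh38.p14) for 5 of the regulators, with 7 start sites in all. They were searched on both strands for 3 motifs that do not overlap each other in these windows. These were AACNGGTT of the grainyhead-like factors, CCGTTA of the OVOL factors and CACCTG, the E-box bound by ZEB1 and SNAI proteins. The E-box stood in 3 of the 7 windows, and in 17.5% of all 35116 upstream windows of this length. The grainyhead motif (1.49% of all windows) and the OVOL motif (2.45%) stood in none. The windows with an E-box are printed because they belong to a gene that was lost in both resistant lines (RAB25), a gene that was lower in both (ELF3) and the gene that was higher in both (GRHL3). Each is written 5′ to 3′ and ends at the base before the RefSeq start, with the E-box in capitals.
RAB25, chr1:156060910-156061159, forward strand: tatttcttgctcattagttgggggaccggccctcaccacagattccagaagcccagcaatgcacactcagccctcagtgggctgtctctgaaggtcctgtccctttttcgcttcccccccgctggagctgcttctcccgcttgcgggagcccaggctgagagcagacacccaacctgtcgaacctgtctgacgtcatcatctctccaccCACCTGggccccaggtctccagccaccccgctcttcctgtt
ELF3, chr1:202010337-202010586, forward strand: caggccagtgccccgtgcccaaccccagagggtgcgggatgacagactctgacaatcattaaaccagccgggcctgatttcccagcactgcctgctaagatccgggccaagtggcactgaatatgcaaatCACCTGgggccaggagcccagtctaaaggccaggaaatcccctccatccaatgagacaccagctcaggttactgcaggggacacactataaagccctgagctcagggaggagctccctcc
GRHL3, chr1:24319107-24319356, forward strand: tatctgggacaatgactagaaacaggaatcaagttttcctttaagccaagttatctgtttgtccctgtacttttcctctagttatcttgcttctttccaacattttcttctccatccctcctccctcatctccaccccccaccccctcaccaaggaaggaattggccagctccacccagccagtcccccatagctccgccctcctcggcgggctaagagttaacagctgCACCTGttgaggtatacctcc

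The E-box begins at position -41 in RAB25, -120 in ELF3 and -21 in GRHL3, counted back from the start site. The window of GRHL3 belongs to the more upstream of its RefSeq starts, and its other window had no motif, nor had the window of GRHL1 and both windows of EHF. The printed windows were those with an E-box, so that RAB25, ELF3 and GRHL3 share it follows from that choice. GRHL2, OVOL1, OVOL2, ESRP1 and ESRP2 had no window here, and a role of the E-box in these levels was not tested. CpG content differed between the windows. GRHL1 had 45 CpG, more than 99.4% of all windows, while RAB25 had 8, ELF3 4 and the windows of GRHL3 3 and 10, beside a median of 11. A match is a run of letters and not a shown binding site.

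The miRNAs were read from their own table as RPM (the CPM of miRNA reads), and their values did not serve in choosing the regulators. Depth was uneven over the miRNA libraries, from 529037 reads in HCT8 replicate 1 and 732699 in HCT8/DDP replicate 1 to 14087194 in HCT8/5-Fu replicate 2. The miR-200 family, which represses ZEB1 and ZEB2, has 2 seeds (bases 2 to 8, in capitals) in its guide arms, and the mature sequences from RefSeq are shown by seed because the levels of the arms are compared below.
miR-200b-3p: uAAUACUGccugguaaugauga
miR-200c-3p: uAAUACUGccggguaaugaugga
miR-429: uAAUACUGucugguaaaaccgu
miR-200a-3p: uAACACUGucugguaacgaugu
miR-141-3p: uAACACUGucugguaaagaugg

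The family was abundant in all lines. miR-200b-3p was at 15463, 17913 and 17000 RPM in HCT8, 20632, 17681 and 17497 RPM in the HCT8/5-Fu libraries, and 13891, 17966 and 17160 RPM in those of HCT8/DDP, with overlapping ranges. miR-200c-3p, whose gene lies at chromosome 12 beside that of miR-141, was at 7485, 6034 and 5684 RPM in HCT8, 9434, 6300 and 6466 RPM in the HCT8/5-Fu libraries, and 4681, 6364 and 5731 RPM in those of HCT8/DDP, again with overlap. Summed over 9 arms, the family reached 35368 ± 2114 RPM in HCT8, 40580 ± 5803 RPM for HCT8/5-Fu, and 33774 ± 3890 RPM for HCT8/DDP. Of 9 arms, 0 were called against HCT8 by limma on log2(RPM + 1), and 0 had an unadjusted p under 0.05 by limma or by edgeR on the recovered reads, where 25.9% of 587 miRNAs tested were called in HCT8/5-Fu (14.8% higher and 11.1% lower) and 17.9% of 599 in HCT8/DDP (10.0% higher and 7.85% lower). The log2 fold changes lay between -0.30 and 0.46 in HCT8/5-Fu (adjusted p of 0.145 to 0.932) and between -0.46 and 0.08 in HCT8/DDP (0.27 to 0.915). The 95% intervals of single arms reached from -0.95 to 1.07 and from -1.09 to 0.57 over the 9 arms, the widest belonging to the arms with the largest errors, and that of miR-200b-3p in HCT8/5-Fu reached from -0.19 to 0.49. miR-429 had a log2 fold change of -0.35 in HCT8/DDP (adjusted p = 0.27) that passed the threshold without HCT8 replicate 1, at -0.51 (adjusted p = 0.0496), and without both shallow libraries, at -0.35 (adjusted p = 0.00178).

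Other miRNAs of epithelia did change. They are shown with their seeds in capitals, miR-192-5p and miR-215-5p sharing the same seed.
miR-203a-3p: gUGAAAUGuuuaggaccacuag
miR-192-5p: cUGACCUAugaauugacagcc
miR-215-5p: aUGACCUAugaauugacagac
miR-194-5p: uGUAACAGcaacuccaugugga
miR-205-5p: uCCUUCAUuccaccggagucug

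miR-203a-3p, which represses the stem cell factor TP63 in skin, was at 10780, 12320 and 10747 RPM in HCT8, 3929, 3649 and 4175 RPM in the HCT8/5-Fu libraries, and 2486, 3198 and 3258 RPM in those of HCT8/DDP. No resistant library came near the HCT8 range, and the log2 fold changes were -1.52 (SE 0.14, adjusted p = 0.000103) and -1.93 (SE 0.15, adjusted p = 1.2e-05). miR-192-5p, a miRNA of the differentiated gut, was at 6046, 9667 and 9820 RPM in HCT8, 48764, 31377 and 34158 RPM in the HCT8/5-Fu libraries, and 19828, 26376 and 21282 RPM in those of HCT8/DDP. It rose by 2.17 (SE 0.25, adjusted p = 0.000461) and 1.43 (SE 0.21, adjusted p = 0.00105) on the log2 scale. miR-194-5p, transcribed with miR-192 and with miR-215, rose by 1.80 and 0.94, and miR-215-5p by 1.55 and 1.24. miR-205-5p, which also targets ZEB1, had 0 reads in HCT8, 37, 63 and 66 reads in HCT8/5-Fu and 0, 22 and 20 reads in HCT8/DDP, with means of 4.61 and 3.07 RPM that were at least 13.0-fold and 8.67-fold higher than a floor of 3 reads over the HCT8 libraries. It was called in HCT8/5-Fu (adjusted p = 0.000405) and not tested in HCT8/DDP, where 2 libraries reached 1 RPM. Of the 14 miRNAs listed, 4 rose and 1 fell in HCT8/5-Fu, and of 13 tested 3 rose and 1 fell in HCT8/DDP, with median log2 fold changes of 0.28 and -0.05, beside 0.11 and -0.04 for all miRNAs tested. HCT8/DDP without HCT8 replicate 1 or without both shallow libraries had 2 called lower, the other being miR-429. Between the resistant lines 0 of these 14 were called by limma (1.23% of 567 miRNAs were, 0.353% higher and 0.882% lower), with 5 at an unadjusted p under 0.05, and edgeR on the recovered reads called 0, with 3 at an unadjusted p under 0.05.

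**Figure D5:**
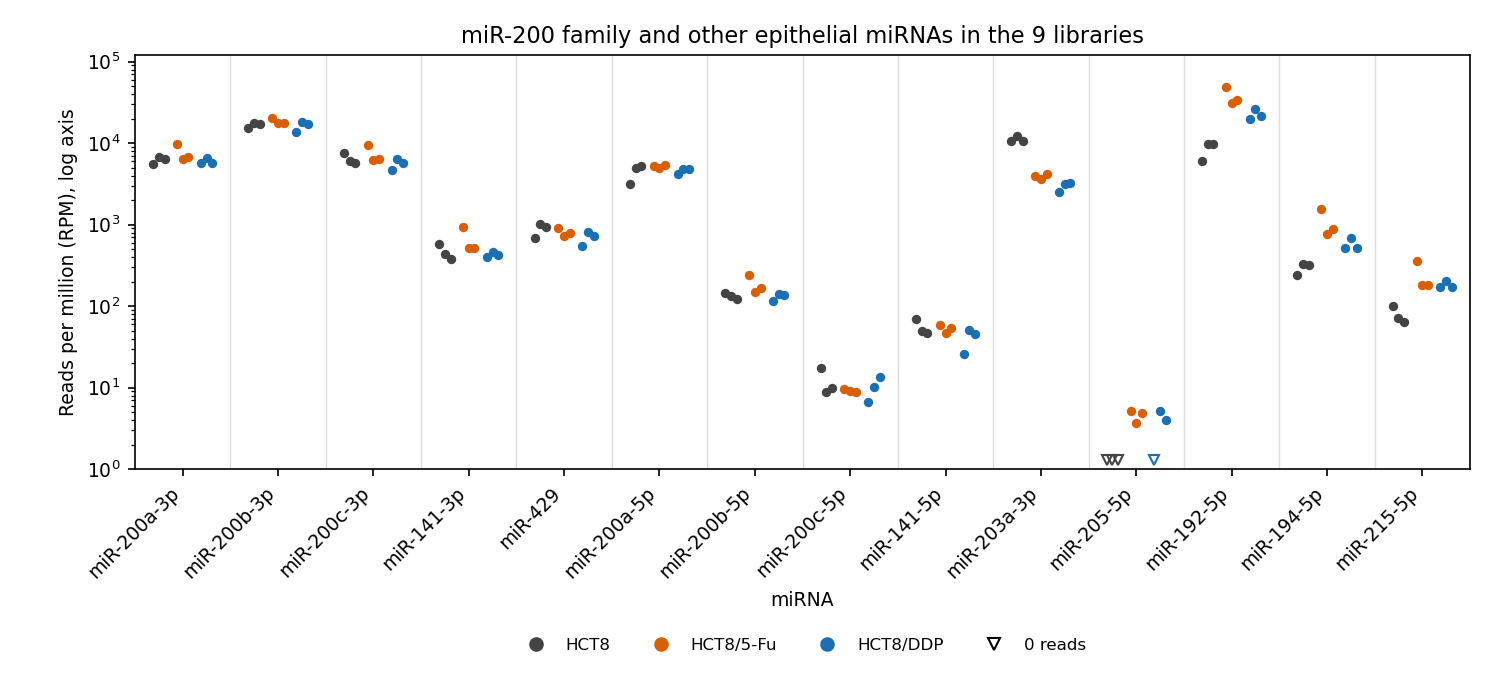
RPM (log axis) of 14 miRNAs in each library of HCT8 (grey), HCT8/5-Fu (orange) and HCT8/DDP (blue), with open triangles at the foot for 0 reads. The miR-200 arms lie at like levels in the 3 lines, miR-203a-3p is lower in both resistant lines, and miR-192-5p, miR-194-5p and miR-215-5p are higher.

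hsacirc_027876 is the circular RNA that the study assigns to GRHL2 and lists as lower in both resistant lines, with matching results by qRT-PCR. Here it was read from back-splice junctions in the table of circular RNAs. It had 13, 23 and 17 reads in the HCT8 libraries and 0 in each of the 6 resistant libraries, so that linear and circular reads of GRHL2 were missing from the same libraries, apart from the 1 linear read in HCT8/5-Fu. Between the resistant lines, 2.27% of 13012 genes tested were called, 1.51% higher and 0.753% lower in HCT8/DDP. The 10 regulators overlapped between HCT8/DDP and HCT8/5-Fu except GRHL1 (higher in HCT8/DDP) and EHF (lower), in a comparison where 14.2% of genes tested lay higher and 13.7% lower without overlap, and GRHL2 and RAB25 were too low to be in that fit. With both lines compared to the same HCT8 libraries, no likeness between them was computed.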

How the data were processed

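RNA was sequenced from 3 libraries of each line. The submitters' notes name HISAT2, DESeq2 and the build mm9, but the coordinates match GRCh38. Whether the mRNA libraries were treated with RNase R, as those for circRNAs were, is not given in the sources used here. The authors deposited read counts per gene with FPKM computed from them, and RPM for miRNAs and circRNAs, from which whole reads were recovered (100% of values within 0.1 read). The lncRNA table was not used, and 0 value columns lacked a sample.

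mRNAs were tested with edgeR 4.0.16 in R 4.3.3 (quasi-likelihood, TMM factors, filterByExpr, the 6 libraries of a comparison) and miRNAs with limma 3.58.1 (trend, log2(RPM + 1), at least 1 RPM in 3 libraries), at a Benjamini-Hochberg adjusted p of 0.05. Both were tested on simulated data. Alternatives were DESeq2 1.42.0, library totals, no filter, all libraries in 1 fit, pseudocounts of 0.1 and 10 RPM, a replicate block and each library left out, and, chosen after seeing the data, edgeR on recovered miRNA reads and a fit without both shallow miRNA libraries.

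The 10 regulators and all gene lists were chosen with earlier results of these data known. Some genes first listed are not reported here and were left out of the lists. Named are the regulators, a fixed set of epithelial genes, the called genes of each list with the smallest p, the 5 genes most like GRHL2 and the listed miRNAs. Deviations of same-numbered libraries from the line means correlated above 0.1 in all 3 pairs only for miRNAs of HCT8/DDP and HCT8 (0.294, 0.292 and 0.145), which does not prove a pairing.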

Additional observations from a re-analysis of the deposited data

Results flagged for a closer look

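Of the genes on the related lists, ETS1 and ITGA5 differed between the resistant lines in the direct test of HCT8/DDP against HCT8/5-Fu. ETS1 was higher in HCT8/DDP by 1.23 on the log2 scale (SE 0.21, edgeR adjusted p = 0.0367), having fallen less from HCT8 in that line. ITGA5 was higher in HCT8/DDP by 0.58 (SE 0.10, edgeR adjusted p = 0.0367), having risen more. In both, the 3 HCT8/DDP libraries lay above the 3 HCT8/5-Fu libraries. Both calls were lost with the replicate block (adjusted p of 0.102 and 0.11) and whenever HCT8/5-Fu replicate 2 or 3 or any 1 of the HCT8/DDP libraries was left out (0.0854 to 0.236), with sizes of 1.06 to 1.37 and 0.49 to 0.63 over all libraries left out in turn. ETV6, another listed gene that falls outside the rule for named genes and was named after its values were seen, passed the same threshold at an adjusted p of 0.0499.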

How the results depend on the processing

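Gene counts past the threshold between HCT8 and each resistant line moved by under 1.5 times in all fits that kept every library. Leaving out both shallow libraries gave 196 instead of 107 miRNA calls in HCT8/DDP. Library totals moved the share called higher in HCT8/5-Fu from 2694 of 5118 to 2036 of 4927 and in HCT8/DDP from 3613 of 7019 to 2751 of 7162. Leaving out 1 library gave 3274 to 7533 (5118) mRNA calls in HCT8/5-Fu, the highest without HCT8/5-Fu replicate 1, 5821 to 8024 (7019) in HCT8/DDP, 82 to 167 (152) miRNA calls in HCT8/5-Fu and 66 to 122 (107) in HCT8/DDP. Between the resistant lines the counts were unstable. The 295 mRNA calls became 1283 with DESeq2, 650 with all 9 libraries in 1 fit, 0 with the replicate block (2263 genes at an unadjusted p under 0.05) and 0 to 3929 with 1 library left out (3929 without HCT8/5-Fu replicate 1 and 0 without any other, where 1527 to 2551 genes had an unadjusted p under 0.05), and the 7 miRNA calls became 4 with a pseudocount of 0.1 RPM, 0 without the filter (145 unadjusted), 1 with the replicate block, 23 with edgeR and 0 to 8 with 1 library left out. The replicate block gave 4685 and 6609 mRNA calls against HCT8 and 120 and 119 miRNA calls, and against HCT8 it ended the calls of ERG (adjusted p = 0.0509), CGN (0.0618) and LSR (0.0933) in HCT8/5-Fu and of TFAP2A (0.064) in HCT8/DDP, and no other named call. The causes of these shifts were not tested. In HCT8/DDP, directions reversed with library totals for RBM47 (-0.039), RAB11FIP1 (-0.020) and MYO5B (-0.082), and without both shallow libraries for miR-200a-5p (-0.075), miR-200b-3p (0.0089), miR-200b-5p (0.11, and 0.016 with edgeR), miR-200c-3p (0.044), miR-200c-5p (0.29), miR-141-3p (0.13) and miR-141-5p (0.012). With 1 library left out, log2 fold changes in HCT8/DDP spanned 0 for RAB11A (-0.20 to 0.064), MYO5B (-0.033 to 0.090), miR-200a-3p (-0.14 to 0.011), miR-200a-5p (-0.15 to 0.21), miR-200b-3p (-0.12 to 0.067), miR-200b-5p (-0.093 to 0.054), miR-200c-5p (-0.44 to 0.053) and miR-141-3p (-0.23 to 0.082), and in HCT8/5-Fu for miR-141-5p (-0.14 to 0.14). Of these, RAB11A was called without HCT8 replicate 1 (-0.20, adjusted p = 0.0312), and no other was called in the fits named. Precision is limited by 3 libraries per line and, for miRNAs, by the shallow libraries.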

Other observations

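Among the colorectal epithelium markers, the keratins were higher in the resistant lines. KRT20, a keratin of differentiated colon epithelium, was at 1.47, 3.14 and 2.52 CPM in HCT8, 36.6, 33.9 and 30.0 CPM in HCT8/5-Fu and 22.9, 23.6 and 12.3 CPM in HCT8/DDP, a rise of 3.90 and 3.14 on the log2 scale. KRT18, the partner of KRT8, rose by 1.66 and 1.06, and KRT19 by 1.12 and 1.08. CDX1 and LGALS4 rose as well, while CDX2, VIL1 and CDH17 were not called in either line, so that 6 of 10 markers tested rose in HCT8/5-Fu, 6 of 11 in HCT8/DDP, and 0 fell. Most markers of other cell types were too low to be tested. Of the leukocyte markers, CD14 fell in both lines, as the only 1 tested in HCT8/5-Fu and 1 of 2 tested in HCT8/DDP, and of the 2 fibroblast markers tested, PDGFRB rose in HCT8/DDP.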
